A study of Homo sapiens with 12 samples.

Results

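The genes described here were 35 genes of the unfolded protein response and of the amino acid stress response, listed by gene symbol for their known roles. They were chosen with earlier results of these data known. Of the 35 genes, 34 had at least 1 annotated probe on the array, among 20045 genes measured in all. HERPUD1 was not analysed here because no probe was annotated to it. The 34 genes had 44 probes, and each gene was given the mean of its probes. By role they were 6 stress sensors and transcription factors, 14 chaperones and folding factors of the endoplasmic reticulum (ER), 3 measured factors of ER-associated degradation, 6 enzymes of serine, one-carbon and asparagine metabolism, and 5 effectors of the ATF4 type.

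The samples were HT144, an established human melanoma cell line, transfected with Lipofectamine and 1 of 3 siRNAs and collected 48 h later. The groups were #1 siCITED1 and #3 siCITED1, siRNAs that target the transcriptional co-regulator CITED1, and siNEG, a non-targeting negative control siRNA, with 4 arrays each. All cells in the 3 groups went through transfection, so an effect of transfection itself is shared by the controls. There was 1 control siRNA and no untransfected group. An effect of the siNEG sequence itself therefore cannot be told apart from a difference shared by both siCITED1 siRNAs. The 4 replicates of a group were separate wells of 1 day and passage, so the p-values measure only the spread between these wells. The study asked how the expression profile of these cells changed when CITED1 was silenced.

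The ER folds proteins for the membrane and for secretion. When unfolded protein builds up there, the sensors IRE1 (ERN1), ATF6 and PERK (EIF2AK3) signal to the nucleus: IRE1 splices the XBP1 mRNA, ATF6 is cut to release a transcription factor, and PERK phosphorylates eIF2 alpha so that ATF4 is made. The XBP1 and ATF6 arms are known for driving chaperones, foldases and degradation factors. The ATF4 arm, which amino acid shortage also reaches through the kinase GCN2, is known for driving asparagine and serine synthesis and the factors DDIT3 (CHOP) and TRIB3. In pigment cells this machinery also folds the melanosomal proteins.

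XBP1 and ATF6 are known to act through the ER stress response element, so promoter windows are shown for members that carry it. The window ran from 250 bases before to 50 bases after each annotated start in RefSeq (GRCh38.p14), and 32 of the 35 genes had one. PDIA3, PSPH and SHMT2 had none. Capitals mark matches to any of the 4 motifs searched, and every sequence runs 5′ to 3′ along the gene's own strand. HSPA5, the central ER chaperone, is shown as its whole window (chr9:125241294-125241593, minus strand).
HSPA5: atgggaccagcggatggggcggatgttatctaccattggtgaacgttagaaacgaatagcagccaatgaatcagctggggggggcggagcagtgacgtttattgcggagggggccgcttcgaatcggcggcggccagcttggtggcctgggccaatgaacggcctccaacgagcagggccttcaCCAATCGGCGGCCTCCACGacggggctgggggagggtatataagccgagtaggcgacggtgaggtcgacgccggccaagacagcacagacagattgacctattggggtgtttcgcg
The stretches around the match are shown for 3 more members that were lower with #1 siCITED1. These are XBP1 (chr22:28800583-28800641, minus strand), CRELD2 (chr22:49918534-49918592, plus strand) and SDF2L1 (chr22:21642094-21642144, plus strand).
XBP1: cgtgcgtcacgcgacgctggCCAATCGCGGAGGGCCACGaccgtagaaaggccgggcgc
CRELD2: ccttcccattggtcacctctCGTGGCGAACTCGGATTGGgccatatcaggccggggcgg
SDF2L1: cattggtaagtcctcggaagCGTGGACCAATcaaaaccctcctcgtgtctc
HYOU1 (chr11:119057360-119057410, minus strand) and CALR (chr19:12938364-12938422, plus strand) are shown as members that carry the element and did not pass the test with either siRNA.
HYOU1: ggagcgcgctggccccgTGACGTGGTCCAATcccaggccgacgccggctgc
CALR: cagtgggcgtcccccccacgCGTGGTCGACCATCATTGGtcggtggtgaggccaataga
ASNS (chr7:97872449-97872496, minus strand) carried the core of the C/EBP-ATF response element, which ATF4 is known to bind.
ASNS: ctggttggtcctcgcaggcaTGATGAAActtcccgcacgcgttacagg

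Both strands of the windows were searched for 4 motifs. The ER stress response element (CCAAT, 9 bases of any kind, CCACG) stood in 7 of the 32 members, which were XBP1, HSPA5, HSP90B1, CRELD2, PDIA6, CALR and CANX (21.9%). It stood in 25 of all 27305 genes with a window (0.0916%). Its second form (ATTGG, 1 base of any kind, CCACG) stood in HYOU1, SDF2L1 and HERPUD1 (9.38% of members, against 0.0696% of all genes). The C/EBP-ATF core (TGATGNAA) stood in ASNS, CHAC1 and HERPUD1 (9.38%, against 4.46% of all genes). The unfolded protein response element core (TGACGTGG) stood in HYOU1 alone among members (3.12%, against 0.927% of all genes), and this match overlapped the second form of the ER stress response element. The plot of motif positions shows that the members' matches began between positions -225 and -9 from an annotated start. The members were listed for their known roles in these responses, so their shares beside those of all genes are a description and not a test. A match is a description of the letters and does not show that a factor binds there.

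**Figure D1:**
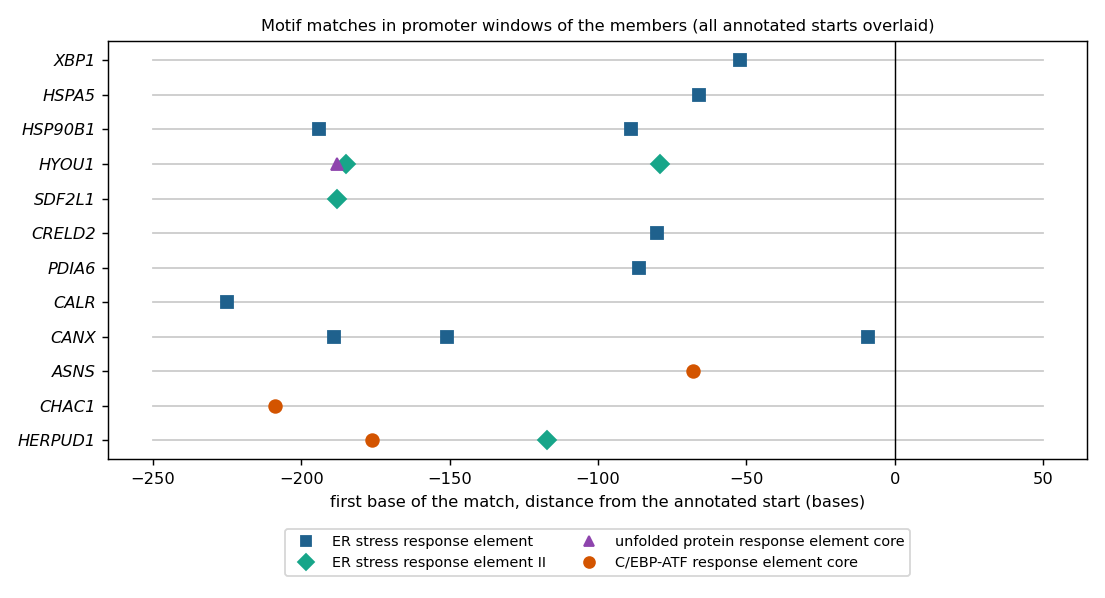
Positions of motif matches (symbols, by motif) in the promoter windows of the members that had any, with the distance of the match's first base from the annotated start in bases on the x axis and 1 gene per line. All annotated starts of a gene are overlaid, which is why CANX has 3 squares for a single match, while HSP90B1 and HYOU1 each held 2 matches of their element in 1 window.

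The deposited values were log2 values centred on each gene and each array, so they give differences and no absolute level, and whether a gene was bright or dim could not be read from them. CITED1 itself ran from -0.25 to -0.13 on the #1 arrays and from -0.34 to -0.20 on the #3 arrays, against 0.35 to 0.54 on the siNEG arrays, with no overlap. Its limma difference from siNEG was -0.64 ± 0.06 with #1 and -0.75 ± 0.06 with #3 (SE, n = 4 each), and the two-sided exact permutation p was 0.0286 for each, the smallest that 4 against 4 arrays allow. The CITED1 difference between the siRNAs did not pass (#1 minus #3 0.11, 95% interval -0.0095 to 0.22). MITF, the melanocyte transcription factor, was higher by 0.21 ± 0.04 with #1 and by 0.24 ± 0.04 with #3. Of 6 measured melanocytic markers 5 were higher with #1 (83.3%, against 4.82% of all genes) and 3 with #3 (50%, against 2.44% of all genes). SOX10 passed with neither, and PMEL was higher with #1 by 0.98 and differed by -0.20 with #3, which did not pass. Of 7 fibroblast markers LUM was higher with both (14.3% of the list with #1) and COL1A2 with #3 (28.6% of the list with LUM). The part of these shifts in the results below was not tested. By limma none of 12 housekeeping genes passed with #1 (against 9.84% of all genes), where 1 had an unadjusted p under 0.05 and 9 lay below 0. HPRT1 alone passed with #3 (-0.28, or 8.33% of the list against 4.35% of all genes), where 11 lay below 0. A well with fewer stressed cells and a well with less stress RNA per cell cannot be told apart in these bulk samples.

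With both siRNAs, CALU was higher and the enzymes PHGDH and ASNS were lower than with siNEG. A further group of ER stress genes, HSPA5, MANF, CRELD2, SDF2L1, XBP1 and DDIT3, was lower with #1 siCITED1 and did not pass with #3, and of these HSPA5, MANF and CRELD2 also passed the test of #1 against #3. MTHFD2 was lower with #3, did not pass with #1, and also passed that test. EDEM1 passed between the siRNAs and did not pass against siNEG. The other 23 members, with most foldases, the 3 sensors and the ATF4 effectors, did not pass in any comparison. In all, 11 of the 34 members passed in at least 1 of the 4 comparisons made (32.4%, against 16.8% of all genes).

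In the comparison of #1 siCITED1 with siNEG, 1 member was higher (2.94%, against 4.82% of all genes), 8 were lower (23.5%, against 5.02% of all genes) and 25 did not pass. Members called either way thus made up 26.5%, against 9.84% of all genes. In that of #3 siCITED1 with siNEG, 1 was higher (2.94%, against 2.44% of all genes) and 3 were lower (8.82%, against 1.91% of all genes), or 11.8% against 4.35% either way. With the 8 siCITED1 arrays pooled against the 4 siNEG arrays, as in the published design, 1 was higher (2.94%, against 1.05% of all genes) and 2 were lower (5.88%, against 0.868% of all genes), or 8.82% against 1.92% either way. Between the siRNAs, 1 was higher with #1 than with #3 (2.94%, against 6.09% of all genes) and 4 were lower (11.8%, against 6.28% of all genes). Either way this was 14.7% against 12.4%, a share near the background. The comparisons with #1 and with #3 share the siNEG arrays. The median difference over the 34 members was -0.081 with #1, -0.026 with #3 and -0.065 pooled, where all genes had medians between 0.0015 and 0.0031.

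Arrays of the groups did not overlap for 9 members with #1 (26.5%, against 13.1% of all genes) and for 5 with #3 (14.7%, against 8.68% of all genes). Of these 9 members 6 were also called by limma. ATF4, HYOU1 and PPP1R15A lay lower on every #1 array than on any siNEG array without passing the test, with limma adjusted p of 0.121, 0.0806 and 0.151. PSAT1 was the corresponding gene with #3 (limma adjusted p = 0.0572). Pooled, the 3 members without overlap (8.82%, against 2.58% of all genes) were the 3 called, and between the siRNAs there were 6 (17.6%, against 15.9% of all genes).

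**Figure D2:**
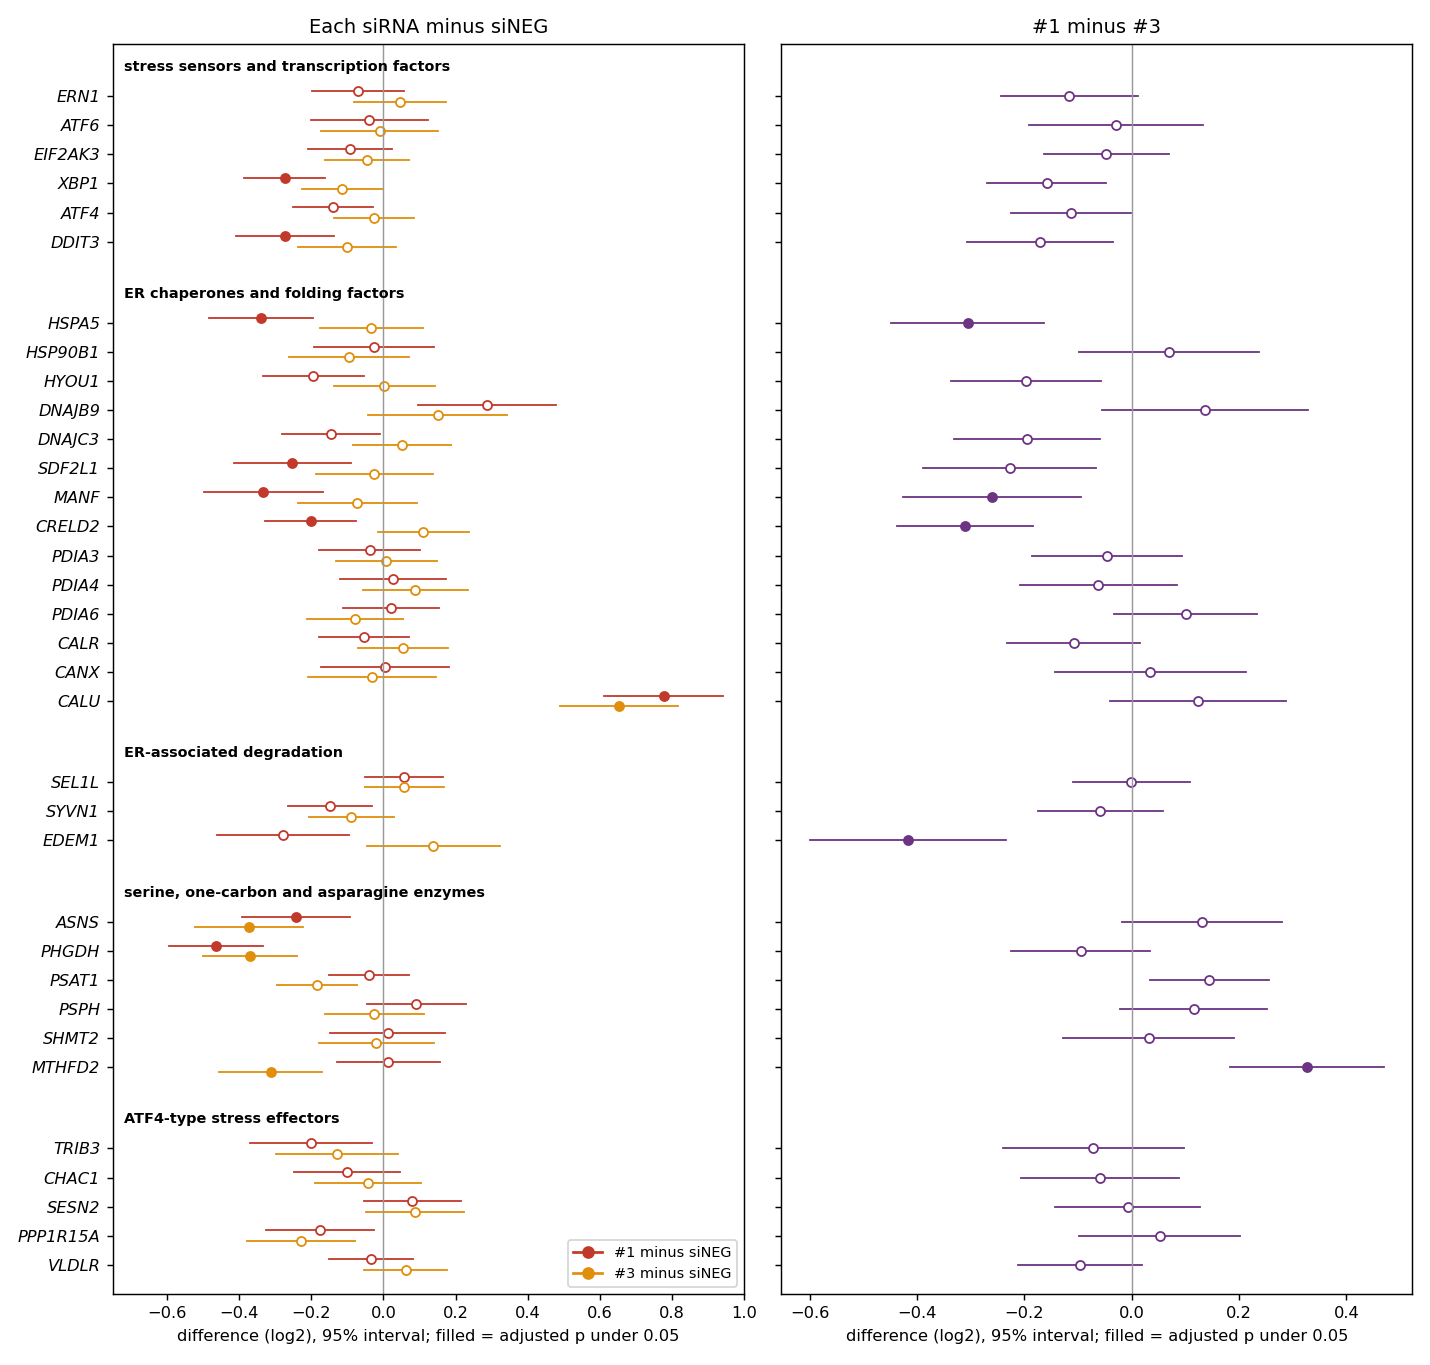
Differences in log2 units (x axis) of the 34 measured members, grouped by role, for #1 and #3 siCITED1 minus siNEG (left) and #1 minus #3 (right). Points are limma differences, lines 95% intervals, and filled points have an adjusted p under 0.05; CALU lies at 0.78 and 0.65 on the left, apart from all other members, and EDEM1 at -0.42 is the lowest point on the right.

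Among the sensors and transcription factors, XBP1 and DDIT3 were lower with #1 siCITED1 (33.3%, against 5.02% of all genes lower), and by limma none of the 6 passed with #3, where 1 had an unadjusted p under 0.05. XBP1, the transcription factor made after IRE1 splicing, had values of -0.065, -0.20, -0.16 and -0.15 on the #1 arrays and -0.061, 0.11, 0.033 and -0.026 on the #3 arrays, against 0.16, 0.039, 0.16 and 0.16 on the siNEG arrays. Every #1 array lay below every siNEG array, whereas the #3 arrays overlapped the siNEG arrays. The difference was -0.27 ± 0.05 with #1 (limma adjusted p = 0.00212) and -0.12 ± 0.05 with #3 (limma adjusted p = 0.316). Between the siRNAs it was -0.16 ± 0.05, which did not pass (limma adjusted p = 0.0605), although the #1 and #3 arrays did not overlap. It passed without #1 replicate 1 (limma adjusted p = 0.0438) or #3 replicate 1 (limma adjusted p = 0.0489), and the pooled difference of -0.19 (limma adjusted p = 0.113) passed without #3 replicate 2 (limma adjusted p = 0.0435).

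The 2 probes of XBP1 did not agree in size. With #1 the probe ILMN_1809433 was lower by 0.40 (limma adjusted p over probes = 0.000112), and ILMN_2365465 differed by -0.14 and did not pass. With #3 ILMN_1809433 differed by -0.23 (limma adjusted p over probes = 0.0583) and ILMN_2365465 by -0.0047. Pooled, ILMN_1809433 was lower by 0.32 (limma adjusted p over probes = 0.0177). ILMN_1809433 read -0.25, -0.18, -0.19 and -0.16 on the #1 arrays and 0.033, -0.0056, -0.019 and -0.074 on the #3 arrays, against 0.31, 0.062, 0.27 and 0.20 on the siNEG arrays. On this probe every #1 and #3 array lay below every siNEG array. The arrays do not show how much of the XBP1 mRNA was spliced.

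DDIT3 encodes CHOP, the transcription factor linked to death of stressed cells. It read -0.11, -0.019, -0.25 and -0.21 on the #1 arrays and 0.079, 0.025, -0.019 and 0.0082 on the #3 arrays, against 0.22, -0.022, 0.071 and 0.23 on the siNEG arrays. The #1 values were the lowest as a group, but siNEG replicate 2 fell just below #1 replicate 2. DDIT3 was lower with #1 by 0.27 ± 0.06 on the log2 scale (limma adjusted p = 0.0102), and its difference with #3 was -0.10 ± 0.06 (limma adjusted p = 0.544). The difference between #1 and #3, -0.17 ± 0.06, did not pass (limma adjusted p = 0.104), and passed without #1 replicate 2 (limma adjusted p = 0.0475).

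ATF4, the transcription factor of the integrated stress response, did not pass as the mean of its 3 probes. It read -0.025, -0.15, -0.10 and -0.064 on the #1 arrays and 0.10, 0.092, -0.0038 and -0.079 on the #3 arrays, against 0.058, -0.016, 0.094 and 0.087 on the siNEG arrays. All #1 arrays lay below the siNEG arrays, and the #3 arrays spanned both. The differences were -0.14 ± 0.05 with #1 and -0.027 ± 0.05 with #3. Of its probes, ILMN_2358457 alone passed, lower with #1 by 0.32 (limma adjusted p over probes = 0.00636), while the other 2 differed by -0.13 and 0.02. The same probe was lower with #1 than with #3 by 0.31 (limma adjusted p over probes = 0.00646), where the other 2 did not pass. ATF4 is controlled largely at translation, which an mRNA array does not measure.

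The 3 sensors themselves had small differences. ERN1 differed by -0.070 with #1 and 0.046 with #3. ATF6 differed by -0.040 with #1 and -0.010 with #3, and EIF2AK3 by -0.093 with #1 and -0.046 with #3. No 95% interval of these 6 differences reached beyond -0.21 or 0.17.

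Among the 14 ER chaperones and folding factors, 4 were lower (28.6%, against 5.02% of all genes) and CALU was higher with #1 siCITED1 (7.14%, against 4.82% of all genes), and CALU alone passed with #3 (7.14%, against 2.44% of all genes higher). HSPA5 (BiP), the HSP70 chaperone of the ER that also holds the stress sensors inactive, read -0.30, -0.18, -0.18 and -0.21 on the #1 arrays and 0.12, 0.14, 0.0045 and 0.10 on the #3 arrays, against 0.064, 0.14, -0.043 and 0.34 on the siNEG arrays. The #1 arrays lay below all others, and the #3 arrays lay within the siNEG range. HSPA5 was lower with #1 by 0.34 ± 0.07 on the log2 scale (limma adjusted p = 0.00289), a fold of 1.26. The difference with #3 was -0.034 ± 0.07 (95% interval -0.18 to 0.11), and that between #1 and #3 was -0.31 ± 0.07 (limma adjusted p = 0.00524).

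MANF, a small ER protein that is secreted under stress, read -0.21, -0.076, -0.39 and -0.11 on the #1 arrays and 0.15, 0.078, -0.078 and 0.099 on the #3 arrays, against 0.17, -0.013, 0.069 and 0.31 on the siNEG arrays. Again the #1 arrays lay below every siNEG array, and #1 replicate 2 overlapped #3 replicate 3. MANF was lower with #1 by 0.33 ± 0.08 on the log2 scale (limma adjusted p = 0.0101), with -0.073 ± 0.08 for #3. Between the siRNAs it was lower with #1 by 0.26 ± 0.08 (limma adjusted p = 0.0376), but this call was lost without #1 replicate 1 or 3 or without #3 replicate 1, 2 or 4 (limma adjusted p 0.0779 to 0.135).

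CRELD2, an ER-resident factor of disulfide exchange, read -0.15, -0.26, -0.059 and -0.22 on the #1 arrays and 0.10, 0.10, 0.23 and 0.12 on the #3 arrays, against 0.098, -0.095, -0.0044 and 0.12 on the siNEG arrays. It separated #1 from #3 without overlap, with the siNEG arrays between and across both. CRELD2 was lower with #1 than with #3 by 0.31 ± 0.06 (limma adjusted p = 0.00178). Against siNEG it was lower with #1 by 0.20 ± 0.06 (limma adjusted p = 0.0412) and differed by 0.11 ± 0.06 with #3 (limma adjusted p = 0.447). The call against siNEG was lost without #1 replicate 1, 2 or 4, #3 replicate 1, 2 or 4, or siNEG replicate 1, 3 or 4 (limma adjusted p 0.05 to 0.132).

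SDF2L1, a partner of HSPA5 and its J-domain proteins, read -0.34, 0.074, -0.19 and -0.19 on the #1 arrays and 0.19, -0.025, -0.010 and 0.11 on the #3 arrays, against 0.20, -0.0004, 0.065 and 0.11 on the siNEG arrays. Array #1 replicate 2 lay among the siNEG arrays, and the other 3 #1 arrays lay below them. SDF2L1 was lower with #1 by 0.25 ± 0.08 (limma adjusted p = 0.0456), and the differences were -0.025 with #3 and -0.23 between #1 and #3 (limma adjusted p = 0.0648). The call with #1 was lost without #1 replicate 1, 3 or 4, #3 replicate 3 or 4, or siNEG replicate 1, 3 or 4 (limma adjusted p 0.0538 to 0.15), and the difference between the siRNAs passed without #1 replicate 2 (limma adjusted p = 0.00685).

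CALU encodes calumenin, which binds calcium in the ER and Golgi and is not a classical target of the unfolded protein response. It read 0.34, 0.31, 0.28 and 0.27 on the #1 arrays and 0.26, 0.35, 0.10 and -0.0036 on the #3 arrays, against -0.67, -0.31, -0.50 and -0.43 on the siNEG arrays. All 8 siCITED1 arrays lay above all siNEG arrays. CALU was higher by 0.78 ± 0.08 with #1 (1.71-fold, limma adjusted p = 3.68e-06), by 0.65 ± 0.08 with #3 (1.57-fold, limma adjusted p = 6.18e-05) and by 0.71 ± 0.07 pooled (limma adjusted p = 0.000159). Between #1 and #3 the difference was 0.12 (95% interval -0.040 to 0.29, limma adjusted p = 0.402).

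The other 9 chaperones and foldases did not pass in any comparison. HYOU1, the HSP110-type partner of HSPA5, differed by -0.19 ± 0.07 with #1 (limma adjusted p = 0.0806) and by 0.0024 with #3, and it passed without #3 replicate 3, with #1 (limma adjusted p = 0.0464) and between #1 and #3 (-0.25, limma adjusted p = 0.0151). DNAJB9, a J-domain partner of HSPA5, went the other way, with 0.29 ± 0.09 for #1 (limma adjusted p = 0.0558) and 0.15 ± 0.09 for #3. It passed with #1 without #1 replicate 1 (limma adjusted p = 0.00948) or siNEG replicate 3 (limma adjusted p = 0.043). DNAJC3, a J-domain co-chaperone of HSPA5, differed by -0.14 ± 0.06 with #1, by 0.051 ± 0.06 with #3 and by -0.19 ± 0.06 between #1 and #3 (limma adjusted p = 0.059). The DNAJC3 difference between the siRNAs passed without #1 replicate 1, #3 replicate 2 or siNEG replicate 1 or 2 (limma adjusted p 0.0346 to 0.0455).

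The lectin chaperones CALR and CANX and the disulfide isomerases PDIA3, PDIA4 and PDIA6 stayed within 0.09 of siNEG with either siRNA. HSP90B1, the HSP90 of the ER, differed by -0.026 with #1 and -0.096 with #3. Of the 9 measured members with an ER stress response element of either form, HSPA5, XBP1, CRELD2 and SDF2L1 were lower with #1, where 5.02% of all genes were lower. HSP90B1, HYOU1, PDIA6, CALR and CANX, which also carried either form in their windows, did not pass. Over the 27 other measured genes with either form, 5 were higher and 1 was lower with #1 (22.2% called, against 9.84% of all genes), and 2 were higher and 1 was lower with #3 (11.1%, against 4.35% of all genes).

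**Figure D3:**
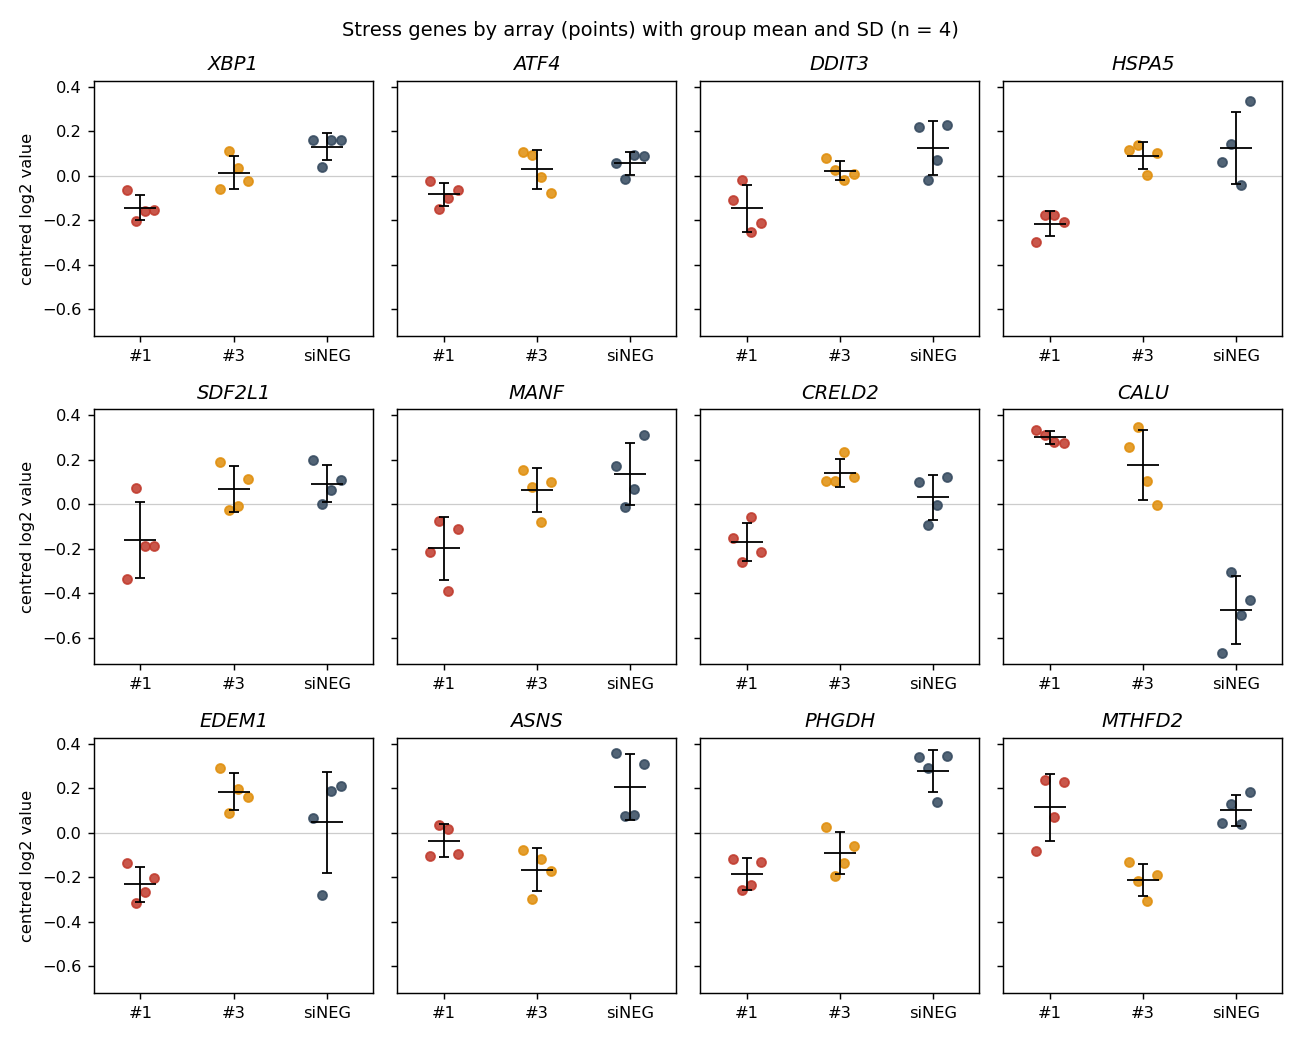
Centred log2 values (y axis) of the 11 members called in at least 1 comparison and of ATF4, with each array as a point and the mean with its SD in black, for #1, #3 and siNEG from left to right (4 arrays each). CALU runs from 0.27 to 0.34 with #1 and from -0.0036 to 0.35 with #3, against -0.67 to -0.31 with siNEG, and the 4 HSPA5 points with #1 lie below all others.

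Among the measured factors of ER-associated degradation, EDEM1 passed, between the siRNAs, and none passed against siNEG by limma (2 with #1 and 0 with #3 had an unadjusted p under 0.05). EDEM1, a lectin that hands misfolded glycoproteins to degradation, read -0.13, -0.32, -0.27 and -0.21 on the #1 arrays and 0.29, 0.090, 0.20 and 0.16 on the #3 arrays, against 0.068, -0.28, 0.19 and 0.21 on the siNEG arrays. The #1 and #3 arrays did not overlap, and siNEG replicate 2 lay with the #1 arrays. EDEM1 was lower with #1 than with #3 by 0.42 ± 0.09 (limma adjusted p = 0.00341). Against siNEG it differed by -0.28 ± 0.09 with #1 (limma adjusted p = 0.0527) and by 0.14 ± 0.09 with #3, and without siNEG replicate 2 it was lower with #1 by 0.39 (limma adjusted p = 0.000679). SYVN1, the ubiquitin ligase of this pathway, differed by -0.15 with #1 and -0.089 with #3, and its partner SEL1L by 0.057 with #1 and 0.058 with #3. SYVN1 passed with #1 without #1 replicate 1 (limma adjusted p = 0.0288).

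Of the 6 enzymes of serine, one-carbon and asparagine synthesis, PHGDH and ASNS were lower with both siRNAs, MTHFD2 was lower with #3 and did not pass with #1, and none was called higher than with siNEG. The share lower was 33.3% with #1, against 5.02% of all genes, and 50% with #3, against 1.91% of all genes. The median difference over the 6 was -0.015 with #1 and -0.25 with #3. PHGDH, the first enzyme of serine synthesis, read -0.12, -0.26, -0.24 and -0.13 on the #1 arrays and 0.025, -0.20, -0.14 and -0.058 on the #3 arrays, against 0.34, 0.29, 0.14 and 0.34 on the siNEG arrays. All 8 siCITED1 arrays lay below the siNEG arrays. PHGDH was lower by 0.46 ± 0.06 with #1 (limma adjusted p = 6.51e-05), by 0.37 ± 0.06 with #3 (limma adjusted p = 0.00148) and by 0.42 ± 0.06 pooled (limma adjusted p = 0.00143). Between #1 and #3 the difference was -0.095 (95% interval -0.22 to 0.035).

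ASNS, asparagine synthetase and a well-known ATF4 target, read -0.10, 0.035, 0.018 and -0.098 on the #1 arrays and -0.078, -0.30, -0.12 and -0.17 on the #3 arrays, against 0.36, 0.075, 0.079 and 0.31 on the siNEG arrays. As the mean of the 2 probes, the siNEG arrays fell into a higher and a lower pair, and both pairs lay above all siCITED1 arrays. ASNS was lower by 0.24 ± 0.07 with #1 (limma adjusted p = 0.0374), by 0.37 ± 0.07 with #3 (limma adjusted p = 0.00431) and by 0.31 ± 0.07 pooled (limma adjusted p = 0.0305). The call with #1 was lost without #1 replicate 1, 3 or 4 or siNEG replicate 1 or 4 (limma adjusted p 0.053 to 0.12), and the pooled call without #1 replicate 1 or 4 or siNEG replicate 1 or 4 (limma adjusted p 0.0518 to 0.134).

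The 2 ASNS probes differed in which siRNA they separated. ILMN_1796417 was lower with #3 by 0.41 (limma adjusted p over probes = 0.000795) and differed by -0.10 with #1, which did not pass. This probe was higher with #1 than with #3 by 0.31 (limma adjusted p over probes = 0.00477), where ILMN_2398107 differed by -0.050 and did not pass. ILMN_2398107 was lower with #1 by 0.38 (limma adjusted p over probes = 0.00836) and with #3 by 0.33 (limma adjusted p over probes = 0.0485). Neither probe alone kept the siNEG arrays above all #1 arrays. On ILMN_1796417 siNEG replicate 2 read -0.0285, below every #1 array (0.0211 to 0.1165). On ILMN_2398107 siNEG replicate 3 read -0.0476, below #1 replicates 2 and 3 (-0.0459 and -0.037).

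MTHFD2, a mitochondrial folate enzyme, read -0.081, 0.24, 0.070 and 0.23 on the #1 arrays and -0.13, -0.22, -0.31 and -0.19 on the #3 arrays, against 0.044, 0.13, 0.040 and 0.18 on the siNEG arrays. The #3 arrays lay below all others, and the #1 arrays surrounded the siNEG arrays. MTHFD2 was lower with #3 by 0.31 ± 0.07 (limma adjusted p = 0.0116) and differed by 0.013 with #1 (95% interval -0.13 to 0.16). Between the siRNAs it was higher with #1 than with #3 by 0.33 ± 0.07 (limma adjusted p = 0.00337), the opposite sign to HSPA5, MANF, CRELD2 and EDEM1.

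PSAT1, the transaminase after PHGDH, differed by -0.19 ± 0.05 with #3 (limma adjusted p = 0.0572) and by -0.041 ± 0.05 with #1. Between the siRNAs PSAT1 differed by 0.14 ± 0.05 (limma adjusted p = 0.0904), although the #1 and #3 arrays did not overlap. One of its probes, ILMN_1692938, was lower with #3 by 0.35 (limma adjusted p over probes = 0.00245), and the other, ILMN_1712563, did not pass. ILMN_1692938 was also higher with #1 than with #3 by 0.34 (limma adjusted p over probes = 0.00121), where ILMN_1712563 differed by -0.049 and did not pass. As the mean of probes PSAT1 passed with #3 without #3 replicate 2 (limma adjusted p = 0.0483) or siNEG replicate 1 (limma adjusted p = 0.0293). PSPH, the last enzyme of serine synthesis, differed by 0.090 with #1 and -0.025 with #3. SHMT2, the mitochondrial serine hydroxymethyltransferase, differed by 0.012 with #1 and -0.020 with #3.

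None of the 5 ATF4-type effectors passed by limma, and at an unadjusted p under 0.05 there were 2 with #1, 1 with #3 and 2 pooled. PPP1R15A (GADD34), which brings a phosphatase to eIF2 alpha, differed by -0.18 ± 0.07 with #1 (limma adjusted p = 0.151) and by -0.23 ± 0.07 with #3 (limma adjusted p = 0.0878). TRIB3, a pseudokinase induced by ATF4 and CHOP, differed by -0.20 ± 0.08 with #1 (limma adjusted p = 0.149) and by -0.13 ± 0.08 with #3. CHAC1, which degrades glutathione, differed by -0.10 with #1 and -0.042 with #3. SESN2, an inhibitor of mTORC1, differed by 0.080 with #1 and 0.088 with #3. VLDLR, a lipoprotein receptor, differed by -0.034 with #1 and 0.061 with #3, and its probe ILMN_2361862 was lower with #1 than with #3 by 0.36 (limma adjusted p over probes = 0.000705). The other VLDLR probe, ILMN_1675092, had the opposite sign in that comparison, 0.17, and did not pass (limma adjusted p over probes = 0.268).

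Further genes of the same pathways were read from lists chosen for their function, with earlier results of these data known. The background for their counts was 4.82% of all genes higher and 5.02% lower with #1, and 2.44% higher and 1.91% lower with #3. Of 25 other ER folding factors, 4 were lower and 2 were higher with #1 siCITED1, and 1 each way with #3. ERO1A, the oxidase that regenerates the disulfide isomerases, was lower with #1 by 0.43 ± 0.07 (limma adjusted p = 0.000527) and lower than with #3 by 0.40 (limma adjusted p = 0.000745). DNAJB11, a J-domain partner of HSPA5, was lower with #1 by 0.33 ± 0.09, and the second oxidase ERO1B was higher by 0.25 ± 0.06. FICD, which AMPylates HSPA5, was lower with #3 by 0.31 ± 0.06 (limma adjusted p = 0.00338), and MLEC, a lectin of the ER, was higher with #3 by 0.26 ± 0.07.

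Of 21 genes of ER translocation and signal peptide processing, 1 was higher and 2 were lower with #1, and 2 were higher with #3. SRP9, a subunit of the signal recognition particle, was lower with #1 by 0.69 ± 0.07 (limma adjusted p = 2.6e-06). SEC62 of the translocon was higher with #1 by 0.27 ± 0.06 and with #3 by 0.24 ± 0.06. SRPRA, the receptor of the signal recognition particle, was higher with #3 by 0.42 ± 0.07. Of 19 other degradation factors, SELENOK was lower by 0.25 ± 0.06 and EDEM2 higher by 0.21 ± 0.06 with #1, and by limma none passed with #3, where 3 had an unadjusted p under 0.05 and the largest values were 0.19 for UBE2J1 and 0.17 for FAF2. Of 4 relatives of CALU, none was higher, and RCN1 was lower with #1 by 0.24 ± 0.05 (limma adjusted p = 0.00509).

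Of 21 other sensors, kinases and regulators, 1 was higher and 2 were lower with #1, and 1 each way with #3. CREB3L2, an ER-bound transcription factor of the ATF6 type, was lower with #1 by 0.54 ± 0.07 (limma adjusted p = 0.000103) and with #3 by 0.39 ± 0.07 (limma adjusted p = 0.00426). MBTPS1, the protease that makes the first cut in ATF6, was higher with #1 by 0.34 ± 0.06 and with #3 by 0.28 ± 0.06. EIF2AK4 (GCN2), the kinase that senses uncharged tRNA, was lower with #1 by 0.25 ± 0.07 (limma adjusted p = 0.0353).

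Of 21 other ATF4 target genes, 3 were higher and 1 was lower with #1, and 1 was lower with #3. The cystine transporter SLC7A11 was higher with #1 by 0.41 ± 0.07 (limma adjusted p = 0.0013), and CBS, of cysteine synthesis, was lower by 0.38 ± 0.05 (limma adjusted p = 0.000173). ATF5, a transcription factor regulated like ATF4, was lower with #3 by 0.48 ± 0.08 and was higher with #1 than with #3 by 0.71 ± 0.08 (limma adjusted p = 1.09e-05).

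Transcripts for amino acid transporters and tRNA synthetases were called in both directions with #1. Of 15 transporters 3 were higher and 2 were lower with #1, led by SLC1A4 for serine and alanine (higher by 0.53 ± 0.07), SLC36A1 of the lysosome (higher by 0.48 ± 0.07), the arginine transporter SLC7A1 (lower by 0.46 ± 0.09) and the glutamine transporter SLC38A1 (lower by 0.44 ± 0.05). With #3, SLC36A1 was higher by 0.44 ± 0.07 and SLC38A1 lower by 0.20 ± 0.05. Of 18 cytosolic aminoacyl-tRNA synthetases 3 were higher and 2 were lower with #1, and 2 were higher with #3. WARS1, for tryptophan, was lower with #1 by 0.75 ± 0.05 (limma adjusted p = 5.22e-08) and was also lower with #1 than with #3 by 0.81 ± 0.05. QARS1, for glutamine, was higher by 0.41 ± 0.07 with #1 and by 0.29 ± 0.07 with #3, and LARS1, for leucine, by 0.31 ± 0.07 with #1 and 0.26 ± 0.07 with #3.

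The lists for neighbouring compartments differed in what passed. Of 13 other serine, glycine and folate enzymes, the cytosolic SHMT1 alone passed with #1, lower by 0.32 ± 0.05 (limma adjusted p = 0.000633), and by limma none with #3, where 2 had an unadjusted p under 0.05 and the largest values were 0.23 for GLDC and 0.19 for DLD. None of 11 mitochondrial chaperones and proteases passed with either siRNA by limma (3 with #1 and 2 with #3 had an unadjusted p under 0.05), and HSPE1 had the lowest values (-0.43 ± 0.19 with #1 and -0.32 ± 0.19 with #3). Of 14 cytosolic heat shock proteins, 4 were lower with #1: HSPA1A by 0.42 ± 0.06, BAG3 by 0.41 ± 0.07, HSPB8 by 0.36 ± 0.08 and DNAJB1 by 0.26 ± 0.06. With #3, CRYAB alone passed, higher by 0.29 ± 0.08.

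**Figure D4:**
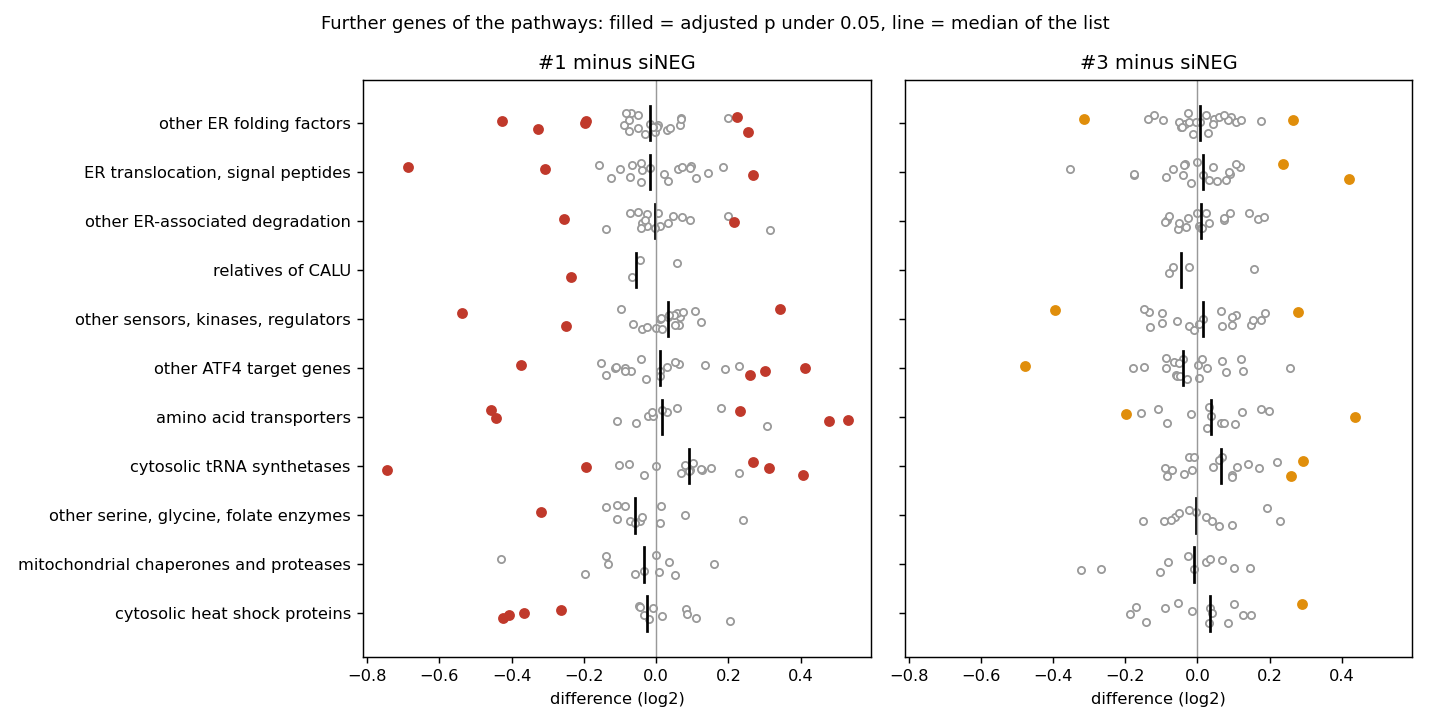
Differences in log2 units (x axis) of the further pathway genes, 1 list per line, for #1 minus siNEG (left) and #3 minus siNEG (right); each point is a gene, filled where the limma adjusted p was under 0.05, and the black line is the median of the list. The medians lie between -0.058 and 0.091 with #1 and between -0.047 and 0.064 with #3, with filled points on both sides of 0 in 7 of the 11 lists with #1 and in 3 with #3.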

How the data were processed

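RNA of HT144 cells was measured on Illumina HT-12 arrays, 4 in each of 3 groups taken from the labels, 48 h after transfection. The authors applied quantile normalization, dropped control probes with BASE, and used MeV for log2 transformation and for centring by gene and by sample, so the deposited log2 values hold differences only. How background was corrected, which probes were detected and the versions of the software were not given in the sources used here. Centred values cannot show the base of the logarithm, which was taken from the methods. Arrays have no read depth, and their number limits the precision. Values were used as deposited: 47315 probes, of which 30105 had 1 gene symbol, 8 several and 17202 none, covering 20045 genes (mean of probes). Array SDs ran from 0.11 to 0.134, and no arrays were identical.

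Limma 3.58.1 (R 4.3.3; lmFit, eBayes) was fitted to 1 value per gene, with two-sided p-values adjusted by Benjamini-Hochberg over all genes and a threshold of 0.05. The pooled comparison took the study's grouping, with limma used where the study used SAM, and a 3-group model gave the other contrasts. Probe values came from the same fits on all probes. Errors of differences are SEs. Fits were tested on simulated data. CITED1 was also tested by exact permutation (scipy 1.17.1). Figures used matplotlib 3.10.9. Promoters came from RefSeq (GRCh38.p14), and protein sequences were not used.

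Members and lists were chosen with earlier results of these data known. Values per array are given for members past the threshold in any comparison and for HSPA5, ATF4, XBP1 and DDIT3. Of each further list up to 4 genes past the threshold are named by size, or up to 2 as values. Alternatives were another probe choice, fits per probe, a replicate block, 2 rescalings of the arrays, a robust prior, a filter on SD, the averaged contrasts and each array left out.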

Additional observations from a re-analysis of the deposited data

Results flagged for a closer look

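Of 36 groups of 4 arrays tested for a distant array, over the members with values per array, 2 held one, where chance gives about 1 in 20. XBP1 on siNEG replicate 2 read 0.0385, against 0.1592 to 0.1609 on the other siNEG arrays. CRELD2 on #3 replicate 3 read 0.2341, against 0.1022 to 0.1201 on the other #3 arrays.

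For 5 members the effects of the siRNAs differed by limma's test of #1 minus #3 (14.7%, against 12.4% of all genes, a share near the background). The MANF call was lost in 5 of the 12 fits with 1 array left out. The differences were -0.3111 for CRELD2, -0.4165 for EDEM1, -0.3059 for HSPA5 and -0.2606 for MANF, lower with #1, and 0.3263 for MTHFD2, higher with #1.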

How the results depend on the processing

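No called difference changed sign under any alternative run. Over single members, 950 of 982 results kept their side of the threshold under the alternatives that kept all arrays, with 7 lost and 25 gained calls, and 1584 of 1632 kept it with 1 array left out, with 31 lost and 17 gained. With the most variable probe per gene, 2 members were higher with #1, 5 lower with #3 and 2 higher with #1 than with #3. With every probe fitted, 3 were higher with #1 than with #3. With the 15033 genes left after a filter on low SD, 2 were higher with #1. After this filter DNAJB9 (higher) and EDEM1 (lower) passed with #1 (limma adjusted p = 0.0188 and 0.0197), and SDF2L1 passed between #1 and #3 (0.0383). DNAJB9 and EDEM1 also passed with #1 with the most variable probe (limma adjusted p = 0.0436 for each). With 1 array left out, the counts ran from 1 to 3 (lower, pooled), 5 to 9 (lower, #1), 1 to 2 (higher, #1), 3 to 4 (lower, #3) and 3 to 6 (lower, #1 minus #3). Calls that were lost or gained with 1 array left out are given above with the arrays they depended on. CRELD2 with #1 was also lost after quantile normalizing again (limma adjusted p = 0.0544), after scaling to equal SD (0.057), with the most variable probe (0.0658) and with every probe fitted (0.0826), and SDF2L1 with #1 with every probe fitted (0.0533). XBP1 passed in the pooled comparison as the average of the #1 and #3 contrasts (limma adjusted p = 0.0147). It also passed there with the most variable probe (limma adjusted p = 0.0175) and with every probe fitted (0.0177), and with #3 with the most variable probe (0.0484). Under these probe choices ATF4 passed with #1 and between #1 and #3 (limma adjusted p 0.00603 to 0.00646). PSAT1 passed with #3 under these probe choices (limma adjusted p 0.00245 and 0.00262) and under the rescalings (0.045 and 0.0453). It also passed between #1 and #3 under these probe choices (limma adjusted p 0.00121 and 0.00125). For single genes, the setting with every probe fitted kept the probe with the smallest limma p. In these comparisons both probe choices fell on the same probe of XBP1, ATF4 and PSAT1, each given above, so they are not separate support. Over all genes the pooled count of 385 was 1155 as the average of the #1 and #3 contrasts and 213 with the replicate block, and 174 to 387 with 1 array left out. With each motif read only along the gene's own strand, the promoter matches were 5, 1, 1 and 1 members. These were for the ER stress response element, its second form, the C/EBP-ATF core and the unfolded protein response core. The pooled fit has 2 groups, so a difference between #1 and #3 counts as spread in it. The averaged contrasts use the spread within the 3 groups. For XBP1 both gave -0.1948, with an SE of 0.0565 in the pooled fit and 0.0455 as the average. The cause of the other changes was not tested.

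The replicate numbers did not pair the arrays: among 12 pairs of arrays with the same number, the deviations from the group means correlated at -0.0742 to 0.132, and 4 of the 12 matched best at their own number. With the replicate block, 1 member was lower in the pooled comparison, since ASNS no longer passed (limma adjusted p = 0.0793), and SDF2L1 no longer passed with #1 (0.0734). The block gained EDEM1 with #1 (limma adjusted p = 0.0195), PPP1R15A with #3 (0.048) and DNAJC3 between #1 and #3 (0.0217), and changed no other member's call.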
